A study of Mus musculus with 16 samples.

Results

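This is an account of the genes whose response to the oncogene Mycl1 differed between 3583T3 and 3151T4, a pair of cell lines from mouse small cell lung cancer. It rests on 8 of the 16 arrays of the study, namely the 4 groups that were either untransfected or carried the Mycl1 vector, with 2 arrays per group. The quantity of interest was the line difference, which is the change with Mycl1 in 3583T3 minus the change with Mycl1 in 3151T4, on the log2 scale of array signal. A positive line difference means that the signal moved further up, or less far down, in 3583T3. Of 8555 genes tested, 316 (3.69%) had a line difference at a Benjamini-Hochberg adjusted p under 0.05 in limma, and 137 of these were at or above a signal floor of log2 4 in all 4 groups. These 137 genes are the members described first.

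Both lines were grown from dissociated tumours of the mouse lung in culture medium with serum. Control cells had received no vector. Mycl1 cells stably carried mouse L-Myc complementary DNA (gene symbol Mycl1 in the labels, Mycl in the current annotation) in an MSCV retroviral vector with a puromycin resistance gene behind a PGK promoter, and were selected with puromycin. No control with an empty vector was used here, so the vector, the selection and the transgene cannot be told apart in any change described below. The genotype of the tumours and the number of separate cultures are not given in the sources used here, and each line is 1 tumour line. The p-values therefore measure only the spread between these arrays, which may be technical.

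L-Myc belongs to the MYC family of transcription factors, which pair with MAX, bind the E-box CACGTG and are known to raise genes of ribosome biogenesis and cell growth. Mycl is recurrently amplified in small cell lung cancer, a tumour with neuroendocrine features. Collagens, matricellular proteins and matrix proteases form and remodel the space around cells, and are typical products of mesenchymal cells such as fibroblasts.

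Of the 3 probe sets of Mycl, number 1422087 detected the transgene. Its signal was 2.47 and 2.36 on the 3583T3 control arrays and 10.82 and 10.09 on the Mycl1 arrays of that line. In 3151T4 it was 2.24 and 2.29 on the control arrays and 9.08 and 10.24 on the Mycl1 arrays. All 4 Mycl1 arrays stood above all 4 control arrays, and the lines overlapped. The line difference of this probe set was 0.65 ± 0.49 (SE), with a 95% interval of -0.42 to 1.71 that does not settle whether the transgene signal was higher in one line. Mycl probe set 1434777 fell by 1.32 in 3583T3 (adjusted p = 0.0216, limma) and changed by -0.37 in 3151T4 (adjusted p = 0.48). Its line difference was -0.95 (95% interval -1.86 to -0.03) and was not called (adjusted p = 0.385). The remaining Mycl probe set, 1422088, was under log2 4 on all 8 arrays. Myc, the founding member of the family, fell in both lines, by 1.13 in 3583T3 and by 1.42 in 3151T4, with a line difference of 0.29 (95% interval -0.51 to 1.09). One Mycn probe set, 1425923, rose by 10.64 in 3583T3 and 10.05 in 3151T4; it read 12.72 on an array of 3583T3 Nfib-vector cells too, and the other Mycn probe sets read at most 5.39 on the 8 arrays. Mycn probe set 1417155 fell by 1.04 in 3583T3 (adjusted p = 0.00461, limma) and was under log2 4 in 3151T4. Its line difference of -0.66 was not called (adjusted p = 0.297). No probe set of Nfib had a called line difference, and the smallest adjusted p among them was 0.424.

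Markers of cell identity were checked in the same 8 arrays. Of the neuroendocrine markers, Chga, Chgb, Syp and Scg3 were under log2 4 in every group, whereas Ncam1 (group means 11.70 to 12.33) and Uchl1 (10.24 to 11.20) were high in both lines and Ddc, the enzyme that makes dopamine and serotonin from their precursors, was high only in 3151T4 (10.54 and 10.70 against 1.59 and 1.88). Insm1 read 3.85 and 3.37 in 3583T3 control cells and 5.04 and 5.51 with Mycl1, and was under log2 4 in 3151T4. Scg2 read 4.99 and 4.87 in 3151T4 control cells and 3.65 and 3.31 with Mycl1, and was under log2 4 in 3583T3. Eno2 was above the floor in all 4 groups without a called line difference. Of the 6 neuroendocrine markers tested, 1 rose in 3583T3 and 1 fell in 3151T4, beside 3.93% and 11.2% of all genes tested. The 2 called line differences were set aside. Acta2, a smooth muscle and myofibroblast actin, had group means of 12.94 to 13.34. Leukocyte and macrophage markers were far higher in the controls than with Mycl1: the summed linear signal of all 19 markers was 14710 and 23050 on the 3583T3 control arrays and 485.6 and 453.2 with Mycl1, and 7502 and 7488 on the 3151T4 control arrays and 492.3 and 351.8 with Mycl1. Of the 18 markers tested, 17 fell in 3583T3 and 18 in 3151T4, beside 5.31% and 11.2% of all genes tested. Fewer cells of a type and less RNA per cell cannot be told apart in such samples.

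**Figure D1:**
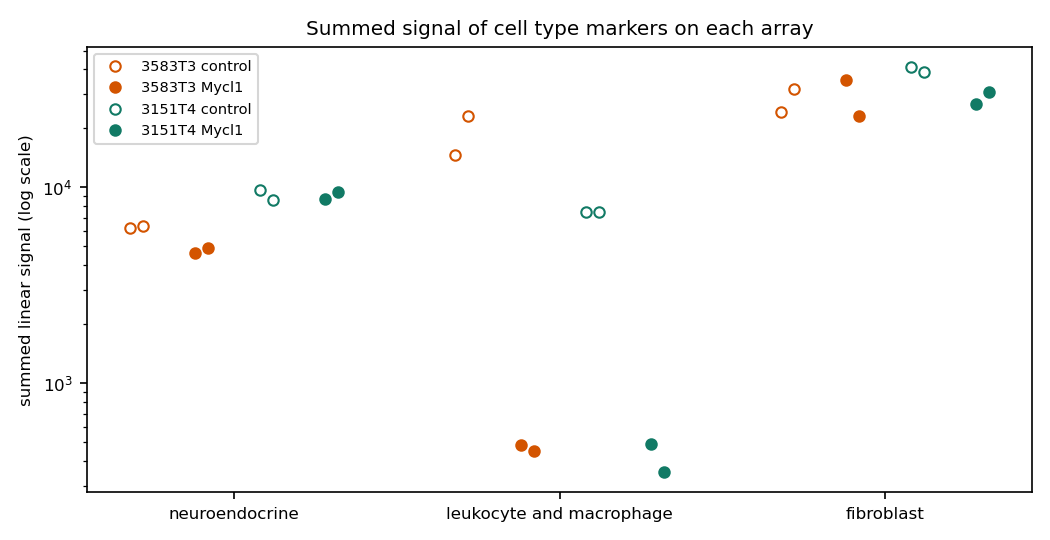
Summed linear signal of marker lists (10 neuroendocrine, 19 leukocyte and macrophage and 15 fibroblast genes with a probe set) on each of the 8 arrays, on a log axis; open points are control arrays, filled points Mycl1 arrays, orange 3583T3 and green 3151T4. The leukocyte and macrophage sum lies between 7488 and 23050 on the control arrays and between 351.8 and 492.3 on the Mycl1 arrays, while the fibroblast sums of the 3583T3 groups overlap.

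Mycl1 changed more genes in 3151T4 than in 3583T3 at the same threshold. In 3583T3, 790 genes (9.23% of those tested) were called, of which 336 rose (3.93%) and 454 fell (5.31%). In 3151T4, 1711 genes (20%) were called, of which 751 rose (8.78%) and 960 fell (11.2%). The first count was 409 and 377 without control replicates 1 and 2 of 3583T3, and the second 989, 654, 946 and 854 without control replicates 3 and 4 and Mycl1 replicates 3 and 4 of 3151T4. The lines shared 166 genes that rose in both and 272 that fell in both, and 31 (0.362%) were called in opposite directions. Across the 7636 genes measured above the floor in all groups, the changes of the lines had a Pearson correlation of 0.581 and a Spearman correlation of 0.584; these are across genes, which are not independent replicates, and serve as a description.

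Of the 316 genes with a called line difference, 202 were positive (2.36%) and 114 negative (1.33%); 1182 genes had an unadjusted p under 0.05. The floor mattered for many of them. For 142 genes the difference could have been made by the floor and they were set aside; 64 of these were under log2 4 in both groups of 3583T3, 51 in both groups of 3151T4 and 27 for other reasons. A further 37 genes, 25 positive and 12 negative, touched the floor and are described below with a limit. If group means of log2 4 or more are taken as measured, the floor can only have understated their difference. The remaining 137 of 7636 measured genes (1.79%) were 105 positive (1.38%) and 32 negative (0.419%). All 137 differed at least 2-fold, and 44 at least 4-fold, 38 of them positive. For the members nearest to the floor, the lowest group mean was 4.02 for Cxcr4, 4.04 for Slc40a1 and 4.04 for Nrip3; just outside it were Trib2 (3.99), Smarca1 (3.98) and Tmem45a (3.94). The count of 137 depended on single arrays: it was 241 without replicate 2 of 3583T3 Mycl1, and 56, 57, 48 and 83 without 3151T4 control replicate 3, Mycl1 replicate 3, control replicate 4 and Mycl1 replicate 4. Of the 48 genes called without 3151T4 control replicate 4, 47 were among the 137. In a fit over all 16 arrays, which include 2 arrays whose Mycl transgene signal goes against their labels (10.22 in 3583T3 Nfib replicate 2 and 2.67 in 3583T3 Nfib+Mycl1 replicate 2), calls of some genes described below were lost: Mmp3 (adjusted p = 0.0884), Tfpi (0.0521), Nrip3 (0.148), Ptprd and Rasl11b (0.0659 each), Tbx15 (0.112), Pdgfrb (0.0503), Aldh1a1 (0.115) and Hoxb5 (0.213). Col1a2, Il18, Igfbp2, Igfbp4, Gsta4, Cx3cl1 and Lif lost their call in that fit too.

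**Figure D2:**
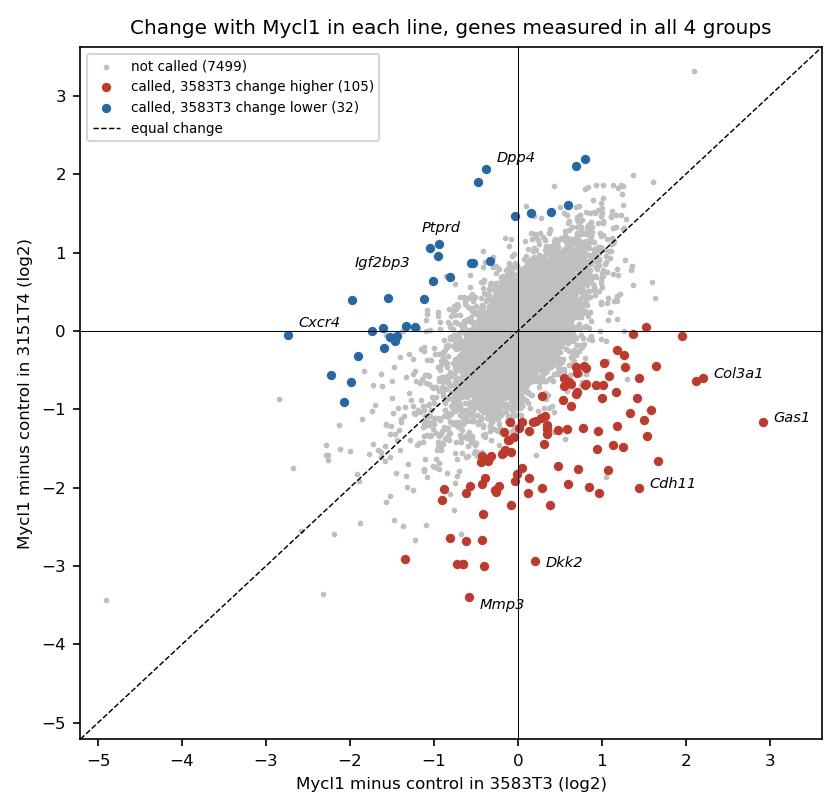
Change with Mycl1 (Mycl1 minus control, log2) in 3583T3 on the x axis and in 3151T4 on the y axis for the 7636 genes measured above the floor in all 4 groups; the dashed line marks equal change. The 105 genes with a positive called line difference (red) lie below the line, many of them at falls in 3151T4, and the 32 with a negative one (blue) lie above it.

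The positive members were mostly genes that fell in 3151T4. Of the 105, 63 were called as falling in 3151T4 with no called change in 3583T3, 18 rose in 3583T3 and fell in 3151T4, 16 rose in 3583T3 with no called change in 3151T4, 5 were called in neither line and 3 fell in both. The median change of the 105 was 0.39 in 3583T3 and -1.31 in 3151T4. Of the 32 negative members, 16 fell in 3583T3 with no called change in 3151T4, 10 rose in 3151T4 with no called change in 3583T3, 3 fell in 3583T3 and rose in 3151T4, 1 fell in both, 1 was called in neither and 1 rose in both. A call in one line and not in the other does not by itself show a difference; here the line difference was the tested quantity.

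Collagens and other matrix genes were among the positive members with the largest line differences. A list of extracellular matrix and integrin genes had 46 tested genes, of which 39 were measured above the floor. In it, 5 were measured members with a positive line difference and 0 with a negative one. Of all measured genes, 1.38% and 0.419% were. In the same list, 1 more was called with a limit and 5 were set aside. In 3151T4, 26 of the 46 fell and 0 rose, beside 11.2% and 8.78% of all genes tested. In 3583T3, 5 rose and 4 fell, beside 3.93% and 5.31%; the 5 were 2 without control replicate 1 or Mycl1 replicate 1 of that line and 3 without 3151T4 control replicate 3 or control replicate 4, and the 4 were 7 without either 3583T3 Mycl1 array and 2 without 3583T3 control replicate 2. The median line difference of the list was 0.57, beside -0.0033 over all genes tested. The count of falls in 3151T4 was 16 without 3151T4 control replicate 4 and at least 18 without any other single array. The count of 5 positive measured members was 3 without that array and 8 without 3583T3 Mycl1 replicate 2.

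Col6a3, a chain of the beaded-filament collagen VI, had a signal of 6.70 and 6.08 on the 3583T3 control arrays and 8.35 and 7.78 with Mycl1. In 3151T4 it was 10.32 and 10.16 on the control arrays and 8.36 and 8.79 with Mycl1. The controls of the lines were thus far apart, and the Mycl1 arrays met at 8.35 and 8.36. Col6a3 rose by 1.68 in 3583T3 and fell by 1.66 in 3151T4, a line difference of 3.34 ± 0.38 (SE, adjusted p = 0.000642, limma). Col6a2, another chain of collagen VI, did not follow it in 3583T3, where its signal was 6.42 and 6.69 in control and 6.13 and 5.52 with Mycl1. It fell by 2.97 in 3151T4, from 9.72 and 10.23 to 6.74 and 7.26, and its line difference was 2.25 ± 0.39 (adjusted p = 0.00788, and 0.0717 without 3151T4 control replicate 4).

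Col3a1, the fibrillar collagen III, showed the reverse balance. Its signal was 8.18 and 8.25 on the 3583T3 control arrays and 10.73 and 10.11 with Mycl1, a rise of 2.21. In 3151T4 it was 12.67 and 12.52 in control and 11.97 and 12.02 with Mycl1, a change of -0.60 that did not pass the test (adjusted p = 0.0637). The line difference was 2.81 ± 0.29 (adjusted p = 0.000356), and a further probe set of the gene gave 3.88. Col1a2, a chain of collagen I, rose by 1.01 in 3583T3 (10.00 and 10.37 to 11.52 and 10.87) and changed by -0.69 in 3151T4 (11.75 and 11.59 to 10.77 and 11.18). Its line difference of 1.71 ± 0.34 (adjusted p = 0.0159) was no longer called without 3151T4 control replicate 3, Mycl1 replicate 3 or control replicate 4, with adjusted p-values up to 0.0994 over all alternatives.

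Postn encodes periostin, a secreted protein of fibroblasts and tumour stroma. Its signal was 5.14 and 4.84 on the 3583T3 control arrays and 6.54 and 6.52 with Mycl1, and 12.33 and 12.50 on the 3151T4 control arrays and 11.14 and 11.01 with Mycl1. The 4 groups did not overlap, and Mycl1 moved each line toward the other, by 1.54 up in 3583T3 and by 1.34 down in 3151T4 (line difference 2.89 ± 0.27, adjusted p = 0.000184). Even so, the 3151T4 Mycl1 arrays remained above those of 3583T3. Thbs2, thrombospondin 2, had a line difference of 2.85 ± 0.64 (adjusted p = 0.0311); its 3583T3 control arrays read 6.56 and 8.35, a wide spread, and the call was lost without any one of the 3151T4 arrays (adjusted p up to 0.196 over all alternatives). Bgn, the small proteoglycan biglycan, fell by 1.76 in 3151T4 (9.57 and 10.37 to 7.91 and 8.51) and changed by 0.72 in 3583T3 (10.32 and 10.84 to 11.27 and 11.34), a line difference of 2.48 ± 0.41 (adjusted p = 0.00537).

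Cdh11 encodes cadherin 11, the adhesion protein of mesenchymal cells. Its signal was 7.16 and 6.32 in 3583T3 control cells and 8.09 and 8.28 with Mycl1, and 9.24 and 8.79 in 3151T4 control cells and 6.91 and 7.10 with Mycl1. The order of the lines turned: 3151T4 was the higher line without the vector and the lower one with it. The line difference was 3.45 ± 0.39 (adjusted p = 0.000629). The homeobox factor Prrx1, known for its role in limb mesenchyme, rose by 1.34 in 3583T3 (7.64 and 8.18 to 9.37 and 9.14) and fell by 1.04 in 3151T4 (8.04 and 7.65 to 6.84 and 6.76). Here the controls of the lines overlapped and the Mycl1 arrays did not (line difference 2.38 ± 0.33, adjusted p = 0.00215). Lox, lysyl oxidase, which cross-links collagen, went the other way: it fell by 1.33 in 3583T3 (12.50 and 12.65 to 11.19 and 11.31) and read 12.88 and 12.47 in 3151T4 control cells and 12.58 and 12.90 with Mycl1. Its line difference of -1.39 ± 0.26 (adjusted p = 0.0122) was not called without 3151T4 control replicate 4 or Mycl1 replicate 4, with adjusted p-values up to 0.0717, or with the replicate block. A further bright probe set of Lox gave a line difference of -0.68 ± 0.26 (adjusted p = 0.283). Of the 33 tested genes of the mesenchymal transition list (32 measured above the floor), Cdh11, Prrx1 and Lox were the 3 measured members. The share over all measured genes was 1.79%. In 3583T3, 3 of the 33 rose and 3 fell (3.93% and 5.31% of all genes tested). In 3151T4, 0 rose and 8 fell (8.78% and 11.2%). The 8 falls were 2 without 3151T4 control replicate 3 or control replicate 4, 4 without either 3151T4 Mycl1 array, and 12 without either 3583T3 Mycl1 array. The 2 positive members of the list were 4 without 3583T3 Mycl1 replicate 2.

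**Figure D3:**
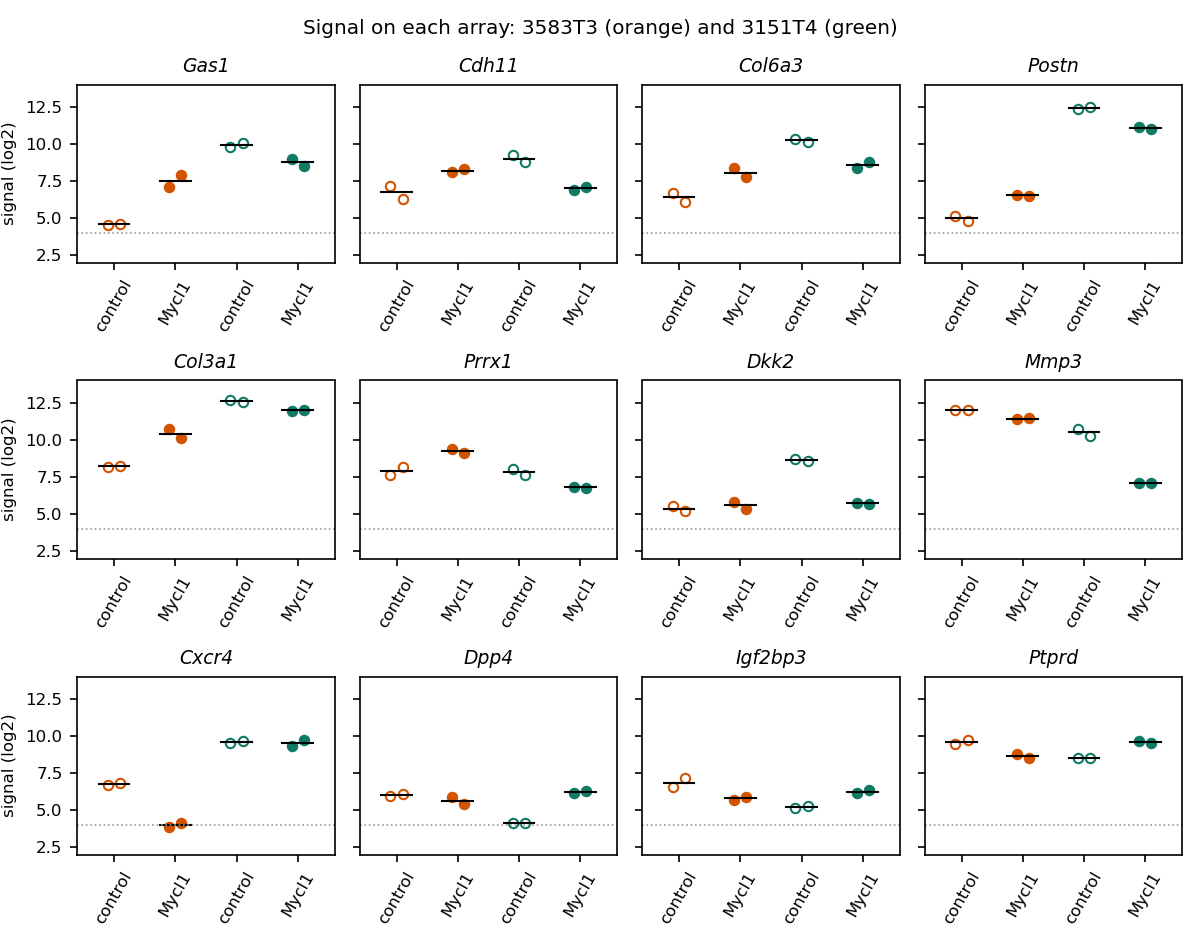
Log2 signal on each array for 12 genes, one panel a gene; open points are control arrays, filled points Mycl1 arrays, orange 3583T3, green 3151T4, black bars group means and the dotted line the floor of log2 4. In the panels from Gas1 to Prrx1 the orange points rise and the green points fall with Mycl1, except that the fall of Col3a1 in 3151T4 did not pass the test.

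Fibroblast markers overlap these lists by design of the lists, since Col1a2, Col3a1, Pdgfrb and Postn belong to them. Of 13 tested fibroblast markers (12 measured above the floor), 4 were measured members with a positive line difference and 0 with a negative one. The shares over all measured genes were 1.38% and 0.419%. In 3583T3, 5 rose and 1 fell (3.93% and 5.31% of all genes tested), and in 3151T4, 0 rose and 5 fell (8.78% and 11.2%). Other markers moved alike in the lines. Group means of Dcn (9.22 to 7.03 in 3583T3, 7.41 to 4.81 in 3151T4) and Pdgfra (8.19 to 7.52, 10.26 to 7.67) went down with Mycl1 in both. Those of Fbln1 went up in both (4.73 to 6.34, 6.89 to 7.52). The median line difference of the list was 0.97. The count of 4 was 2 without 3151T4 control replicate 4. The 5 falls in 3151T4 were 3 without Mycl1 replicate 3 or control replicate 4 of that line and 8 without either 3583T3 Mycl1 array, and the 5 rises in 3583T3 were 3 without its control replicate 1. The summed linear signal of the 15 markers was 24260 and 31870 on the 3583T3 control arrays and 35330 and 23120 with Mycl1, which overlap, and 41070 and 38720 on the 3151T4 control arrays and 26600 and 30640 with Mycl1, which do not. The part of other cells in these changes was not tested. Pdgfrb, the receptor for platelet-derived growth factor B on mesenchymal cells and pericytes, rose by 1.00 in 3583T3 (8.19 and 8.73 to 9.36 and 9.56) and fell by 0.85 in 3151T4 (11.37 and 11.96 to 10.77 and 10.85), a line difference of 1.85 ± 0.34 (adjusted p = 0.0106, not called without 3151T4 control replicate 4, adjusted p = 0.0717).

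Other secreted or cell surface proteins were among the 12 largest positive members. Mmp3, the matrix protease stromelysin 1, was at 12.01 and 12.04 on the 3583T3 control arrays and 11.42 and 11.46 with Mycl1, a change of -0.58 that did not pass the test (adjusted p = 0.0807). In 3151T4 it fell from 10.74 and 10.28 to 7.10 and 7.13, by 3.39, and the line difference was 2.81 ± 0.27 (adjusted p = 0.000186). Mmp23, another matrix metalloproteinase, rose by 1.25 in 3583T3 (4.39 and 4.86 to 5.81 and 5.94) and fell by 1.48 in 3151T4 (7.56 and 7.61 to 6.0 and 6.20), so that its Mycl1 arrays lay close together in the lines. Serpinf1, the secreted pigment epithelium-derived factor that restrains vessel growth, rose by 0.97 in 3583T3 (8.97 and 8.81 to 10.10 and 9.61) and fell by 2.07 in 3151T4 (9.16 and 9.12 to 7.13 and 7.02), a line difference of 3.04 ± 0.29 (adjusted p = 0.000186). Tfpi, the inhibitor of tissue factor in blood clotting, rose by 2.13 in 3583T3 (5.67 and 6.40 to 8.0 and 8.32) and changed by -0.64 in 3151T4 (7.67 and 7.63 to 7.18 and 6.85). Its line difference was 2.76 ± 0.36 (adjusted p = 0.00157).

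The gene with the largest line difference among the measured members was Gas1, a membrane protein that binds hedgehog ligands and acts as their co-receptor. Its signal was 4.54 and 4.64 on the 3583T3 control arrays and 7.08 and 7.94 with Mycl1, a rise of 2.92. In 3151T4 it was 9.81 and 10.05 in control and 9.0 and 8.54 with Mycl1, a fall of 1.16. Its line difference was 4.08 ± 0.39 (adjusted p = 0.000186), which is 16.9-fold. Further probe sets of Gas1 gave 2.44 (adjusted p = 0.0351) and 1.17 (adjusted p = 0.181), the latter with means near the floor in 3583T3.

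Secreted inhibitors of Wnt signalling differed as well. Dkk2 fell by 2.94 in 3151T4 (8.71 and 8.60 to 5.73 and 5.71) and changed by 0.21 in 3583T3 (5.52 and 5.24 to 5.83 and 5.35), where its control arrays were already as low as the 3151T4 Mycl1 arrays. The line difference was 3.15 ± 0.31 (adjusted p = 0.000204). Dkk3, a relative of the Dickkopf family, fell by 1.28 in 3151T4 (10.42 and 10.40 to 8.99 and 9.26) and changed by 0.95 in 3583T3 (6.16 and 5.81 to 7.46 and 6.42), a line difference of 2.23 ± 0.42 (adjusted p = 0.0118, and up to 0.0851 without 3151T4 control replicate 3, Mycl1 replicate 3 or control replicate 4). Of 26 tested genes of the Wnt and hedgehog list (16 measured above the floor), Gas1, Dkk2 and Dkk3 were the 3 measured members and 0 were negative. Of all measured genes, 1.38% were positive and 0.419% negative members. In 3583T3, 2 rose and 2 fell, and in 3151T4, 0 rose and 8 fell, where 3.93% and 5.31% of all genes tested rose and fell in 3583T3 and 8.78% and 11.2% in 3151T4. The 8 falls were 3 without 3151T4 control replicate 3 and 5 without control replicate 4 or Mycl1 replicate 4. The 3 members were 2 without 3151T4 control replicate 3, Mycl1 replicate 3 or control replicate 4.

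Among growth factors and their binding proteins, 42 genes were tested and 38 of these were measured above the floor. Positive measured members numbered 3 and negative ones 1, beside 1.38% and 0.419% of all measured genes. In 3583T3, 4 rose and 3 fell (3.93% and 5.31% of all genes tested), and in 3151T4, 0 rose and 12 fell (8.78% and 11.2%). The 3 positive members were 1 without 3151T4 control replicate 4 and 2 without 3583T3 Mycl1 replicate 2 or either 3151T4 Mycl1 array, and the 12 falls were 7 without any one 3151T4 array. The 1 negative member was not called without replicate 2 of the 3583T3 control or Mycl1 arrays, either 3151T4 control array or 3151T4 Mycl1 replicate 4, and the 4 rises in 3583T3 were 2 without replicate 1 of its control or Mycl1 arrays or either 3151T4 control array. Inhbb, the activin and inhibin beta B subunit, fell by 2.68 in 3151T4 (10.02 and 9.67 to 7.27 and 7.06) and changed by -0.62 in 3583T3 (11.39 and 11.46 to 10.75 and 10.86), a line difference of 2.06 ± 0.27 (adjusted p = 0.00153). Igfbp4 and Igfbp2 bind insulin-like growth factors, and their line differences had opposite signs. Igfbp4 fell by 1.52 in 3151T4 (12.23 and 12.81 to 11.15 and 10.85) and read 11.10 and 10.74 in 3583T3 control cells and 10.60 and 10.95 with Mycl1. Igfbp2 fell by 1.60 in 3583T3 (10.07 and 10.59 to 8.88 and 8.57) and read 11.02 and 10.40 in 3151T4 control cells and 10.46 and 11.03 with Mycl1. Neither is firm: the line difference of Igfbp4 (1.37 ± 0.33, adjusted p = 0.0409) lost its call under 11 of 19 alternatives and that of Igfbp2 (-1.64 ± 0.38, adjusted p = 0.0377) under 10, each of them including 5 of the 8 single-array omissions. Vegfd, a growth factor for lymphatic vessels, had a line difference of 2.85 ± 0.42 (adjusted p = 0.00291); it fell by 2.00 in 3151T4 (6.22 and 5.95 to 4.29 and 3.89) and read 5.92 and 6.92 in 3583T3 control cells and 7.27 and 7.26 with Mycl1.

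Of 29 tested antioxidant and detoxification genes (25 measured above the floor), 4 were measured members, all positive, beside 1.38% of all measured genes. In 3583T3, 0 rose and 3 fell (5.31% of all genes tested fell), and in 3151T4, 0 rose and 11 fell (11.2%). The 4 members were 2 without 3583T3 control replicate 2, 3151T4 control replicate 3, control replicate 4 or Mycl1 replicate 4. The 11 falls were 6 without 3151T4 control replicate 3 and 7 without either 3151T4 Mycl1 array, and the 3 falls in 3583T3 were 1, 1 and 0 without control replicate 1, Mycl1 replicate 1 and control replicate 2 of that line. Aldh1a1, a retinaldehyde dehydrogenase, was at 12.03 and 11.84 in 3583T3 control cells and 11.60 and 11.74 with Mycl1, and fell by 2.06 in 3151T4 (8.80 and 8.94 to 6.86 and 6.76; line difference 1.79 ± 0.25, adjusted p = 0.00221). Aldh3a1, an aldehyde dehydrogenase of the cornea and airway, fell by 2.03 in 3151T4 (8.07 and 7.98 to 5.91 and 6.07), with a line difference of 1.76 ± 0.27 (adjusted p = 0.00403). Its 3583T3 arrays lay between 7.25 and 7.69. The glutathione transferases Mgst1 (line difference 2.24 ± 0.49, adjusted p = 0.0257) and Gsta4 (1.07 ± 0.25, adjusted p = 0.0387) were less firm, with calls lost under 4 and 11 of the 19 alternatives and adjusted p-values up to 0.185 and 0.253.

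Of 28 tested cytokines and chemokines (19 measured above the floor), 2 were positive measured members and 2 negative. The shares over all measured genes were 1.38% and 0.419%. The positive count was 0 without 3583T3 control replicate 1, 3151T4 control replicate 3, Mycl1 replicate 3 or control replicate 4 and with the replicate block, and 1 without 3583T3 Mycl1 replicate 1 or 3151T4 Mycl1 replicate 4. The negative count was 1 without control replicate 2 or Mycl1 replicate 2 of 3583T3 or any one 3151T4 array. In 3583T3, 1 rose and 11 fell (3.93% and 5.31% of all genes tested), and in 3151T4, 2 rose and 15 fell (8.78% and 11.2%; 9 falls without 3151T4 control replicate 3). Cx3cl1, fractalkine, fell by 1.54 in 3151T4 (8.02 and 7.97 to 6.35 and 6.55) and lay between 6.08 and 6.57 on all 3583T3 arrays. Lif, a cytokine of the interleukin 6 family, fell by 1.31 in 3151T4 (8.87 and 8.42 to 7.09 and 7.57) and lay between 7.26 and 8.06 on the 3583T3 arrays. Their line differences of 1.46 ± 0.31 and 1.66 ± 0.38 (adjusted p = 0.0252 and 0.0343) lost their call under 7 and 8 of the 19 alternatives, with adjusted p-values up to 0.124 and 0.379.

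The negative members of that list are also expressed by leukocytes. Cxcr4, the receptor of the chemokine Cxcl12, had a signal of 6.68 and 6.83 on the 3583T3 control arrays and 3.87 and 4.17 with Mycl1, and 9.52 and 9.68 on the 3151T4 control arrays and 9.34 and 9.75 with Mycl1. It fell by 2.73 in 3583T3, and its line difference of -2.68 ± 0.30 (adjusted p = 0.000642) was the largest negative one of the measured members. Il18, an interleukin 1 family cytokine, fell by 2.22 in 3583T3 (6.24 and 6.96 to 4.46 and 4.30) and changed by -0.56 in 3151T4 (9.03 and 9.01 to 8.42 and 8.49). Its line difference was -1.66 ± 0.34 (adjusted p = 0.0185); the call was lost without 3583T3 control replicate 2 and without any one of the 3151T4 arrays (adjusted p up to 0.176). The leukocyte and macrophage sum fell in the same arrays, from 14710 and 23050 to 485.6 and 453.2 in 3583T3, and its part in these falls was not tested. In 3151T4 the sum fell from 7502 and 7488 to 492.3 and 351.8. Cxcr4 changed by -0.05 and Il18 by -0.56 in that line, and the part of the sum was not tested there either.

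Other negative members had no shared function among the lists. Dpp4, a cell surface dipeptidase that inactivates incretin hormones, rose by 2.07 in 3151T4 (4.16 and 4.11 to 6.13 and 6.28) and read 5.94 and 6.10 in 3583T3 control cells and 5.86 and 5.43 with Mycl1 (line difference -2.45 ± 0.29, adjusted p = 0.000991). Cadm1, an immunoglobulin-type adhesion molecule of nerve and lung epithelium, rose by 1.90 in 3151T4 (5.56 and 5.34 to 7.58 and 7.12), with 3583T3 arrays between 9.84 and 11.12; its call (-2.37 ± 0.47, adjusted p = 0.0152) was lost without 3151T4 control replicate 3, Mycl1 replicate 3 or control replicate 4 (adjusted p up to 0.119). Nrip3 fell by 1.98 in 3583T3 (7.17 and 7.70 to 5.38 and 5.54) and was near the floor in 3151T4, between 3.84 and 4.45 (line difference -2.37 ± 0.33, adjusted p = 0.00211). The T-box factor Tbx15 fell by 1.74 in 3583T3 (6.15 and 5.88 to 4.25 and 4.30) and lay between 8.78 and 9.11 in 3151T4; its line difference of -1.73 ± 0.29 (adjusted p = 0.00605) was not called without 3151T4 control replicate 4 (adjusted p = 0.0557). Rasl11b, a small GTPase of the RAS superfamily, fell by 1.54 in 3583T3 (7.29 and 7.61 to 5.90 and 5.92) and changed by 0.42 in 3151T4 (line difference -1.96 ± 0.31, adjusted p = 0.00402). Ccdc88c, a regulator of Dishevelled in Wnt signalling, fell by 1.01 in 3583T3 and changed by 0.63 in 3151T4, and its call was lost without 3583T3 control replicate 1 or any one of the 3151T4 arrays (line difference -1.65 ± 0.34, adjusted p = 0.0191, up to 0.11).

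In all, 21 of the measured members were called in both lines in opposite directions, 18 up in 3583T3 and down in 3151T4 and 3 the other way. Besides Gas1, Cdh11, Col6a3, Serpinf1, Postn, Mmp23, Prrx1 and Pdgfrb, the 18 held 10 genes that are named here to complete the count, after their values were seen. They were Plac8 (1.5 in 3583T3 and -1.13 in 3151T4), Igdcc4 (1.59 and -1.01), Mme, the peptidase neprilysin (1.14 and -1.45), Tmem119 (0.94 and -1.5), Sult1c2, a sulfotransferase (1.19 and -1.22), Tmem47 (1.42 and -0.86), Sfrp4, a secreted Wnt antagonist (0.78 and -1.24), Ndrg2 (1.17 and -0.78), Ephx1, an epoxide hydrolase (0.93 and -0.69), and the water channel Aqp5 (0.80 and -0.69).

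The 3 that fell in 3583T3 and rose in 3151T4 were Igf2bp3, Ptprd and B3gnt5. Igf2bp3, an oncofetal RNA-binding protein, read 6.56 and 7.16 in 3583T3 control cells and 5.71 and 5.90 with Mycl1, and 5.15 and 5.25 in 3151T4 control cells and 6.18 and 6.33 with Mycl1. The line with the higher signal thus changed with the vector (line difference -2.10 ± 0.32, adjusted p = 0.00383). Ptprd, a receptor phosphatase of nerve cells, did the same: 9.46 and 9.72 fell to 8.76 and 8.54 in 3583T3, and 8.50 and 8.51 rose to 9.69 and 9.54 in 3151T4 (line difference -2.05 ± 0.27, adjusted p = 0.00153). B3gnt5, which starts the lacto-series of glycolipids, fell from 10.09 and 10.25 to 9.33 and 9.10 in 3583T3 and rose from 4.25 and 3.99 to 5.27 and 4.89 in 3151T4, with no change in the order of the lines (line difference -1.92 ± 0.30, adjusted p = 0.00429).

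**Figure D4:**
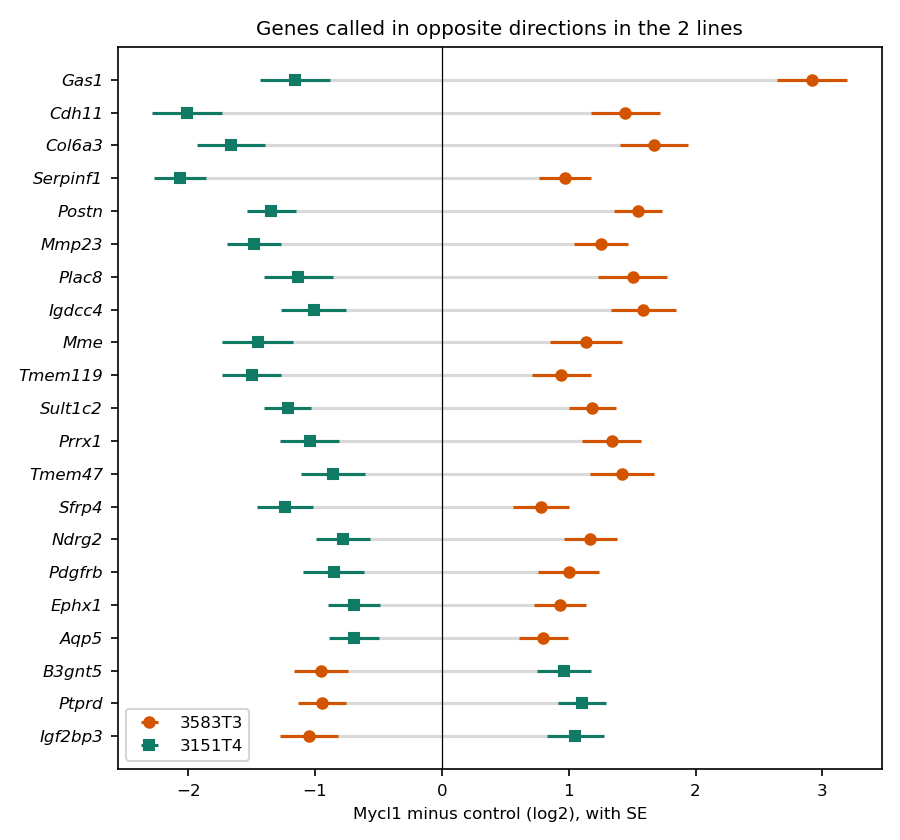
Change with Mycl1 (log2, with SE) in 3583T3 (orange circles) and 3151T4 (green squares) for the 21 measured members called in both lines in opposite directions, ordered by line difference. The upper 18 genes, from Gas1 to Aqp5, rose in 3583T3 and fell in 3151T4; B3gnt5, Ptprd and Igf2bp3 did the reverse.

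A few members were called in both lines in the same direction and differed in size; they too are named after their values were seen. Ecm1 (-1.35 in 3583T3 and -2.91 in 3151T4), the sugar-binding galectin Lgals9 (-0.90 and -2.16) and Moxd1 (-0.88 and -2.02) fell further in 3151T4. Rab32, a small GTPase of organelle traffic, fell further in 3583T3 (-2.06 and -0.90). Dnmt3b, a de novo DNA methyltransferase, rose in both, by 0.80 in 3583T3 and 2.19 in 3151T4.

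Genes under the floor in some groups gave limits. Ccn5, a matricellular protein of the CCN family, rose from 5.95 and 6.69 to 8.83 and 8.59 in 3583T3 and fell from 6.67 and 6.23 to 3.61 and 3.67 in 3151T4. With group means under the floor raised to it, the line difference was at least 4.84, beside 5.20 as fitted (adjusted p = 4.09e-05). Nid2, a basement membrane protein, fell in 3151T4 from 10.40 and 10.48 to 7.95 and 8.24 and was at 3.85 and 3.74 against 4.37 and 4.51 in 3583T3, a difference of at least 2.78. Svep1 (at least 2.59), Tmem45a (at least 2.44) and Hoxb5 (at least 2.06) were the other positive genes with the largest limits. Svep1 read 3.07 and 4.52 on its 3583T3 control arrays and was not called without 3151T4 control replicate 4. Hoxb5 rose from 4.26 and 4.58 to 6.73 and 6.04 in 3583T3. Its 3151T4 means of 4.10 in control and 3.82 with Mycl1 lay around the floor, so its change there is not known.

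Of the 12 negative genes with a limit, 4 are on the leukocyte and macrophage marker list. Cd74, the chaperone of class II antigen-presenting molecules, fell from 10.52 and 11.65 to 2.91 and 3.12 in 3583T3 and from 9.04 and 8.85 to 5.31 and 5.61 in 3151T4, a line difference of at most -3.60. The lysozyme gene Lyz1 fell from 12.27 and 12.62 to 3.80 and 2.52 in 3583T3 and from 11.65 and 11.80 to 7.62 and 6.05 in 3151T4, with a limit of -3.55. Lyz2 (limit -1.82) and the tetraspanin Cd53 (limit -2.17) are the other 2 of these 4. Of the 18 tested markers of this list, 4 had a limit and 9 were set aside at the floor, beside 37 and 142 of all 8555 genes tested. Only 2 of the 18 were above the floor in all 4 groups, and 0 of these 2 were called. The list could thus hardly hold measured members. Sla, an adaptor of lymphocyte signalling, fell from 5.16 and 5.63 to 3.91 and 3.56 in 3583T3 and read 6.01, 5.69, 6.37 and 6.80 in 3151T4 (limit -2.13).

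The gene groups best known for MYC activity moved in the same direction in the lines. Of 55 tested genes of ribosome biogenesis and the nucleolus, 15 rose and 0 fell in 3583T3 (3.93% and 5.31% of all genes tested). In 3151T4, 41 of the 55 rose and 0 fell (8.78% and 11.2%). Their median change was 0.52 in 3583T3 and 0.95 in 3151T4, beside 0.04 and 0.02 over all genes tested. None of the 55 had a called line difference by limma (0, beside 3.69% of all genes tested). An unadjusted p under 0.05 was reached by 12 of them, beside 1182 of all 8555 genes tested. Of the 55 line differences, 51 were negative, beside 50.3% of all genes tested. The count in 3583T3 rested on single arrays, with 3 without control replicate 1, 2 without control replicate 2, 7 without Mycl1 replicate 1 and 25 without Mycl1 replicate 2. In 3151T4 it was 23 without control replicate 4 and 22 without Mycl1 replicate 4. Chosen as the 4 with the most negative line difference after their values were seen, Rrp9 (0.83 in 3583T3 and 1.84 in 3151T4), Rrp12 (0.70 and 1.59), Nhp2 (0.61 and 1.40) and Wdr12 (0.45 and 1.17), all ribosome assembly factors, had adjusted p-values of 0.326, 0.117, 0.12 and 0.238 for the line difference.

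Of 46 tested G2/M and mitosis genes, 0 were called in 3583T3 and 2 rose in 3151T4, beside 8.78% of all genes tested. The count of 2 was 12 and 13 without 3583T3 Mycl1 replicates 1 and 2, 1 without either 3583T3 control array, 2 without 3151T4 control replicate 3 and 0 without any one of the other 3151T4 arrays. For this list the median change was -0.10 in 3583T3 and 0.32 in 3151T4. Of its 46 line differences, 45 were negative, beside 50.3% of all genes tested. By limma, 0 were called and 8 had an unadjusted p under 0.05, beside 316 and 1182 of all 8555 genes tested. Of 39 genes of DNA replication and S phase, 1 rose in 3583T3 and 11 in 3151T4, beside 3.93% and 8.78% of all genes tested. The 1 was 5 without 3583T3 Mycl1 replicate 2 and 0 without any other 3583T3 array. The 11 were 6 without either 3583T3 control array or 3151T4 control replicate 3, 4 without 3151T4 Mycl1 replicate 3, and 3 without control replicate 4 or Mycl1 replicate 4 of that line. Of 28 tested translation factors and tRNA synthetases, 25 had a negative line difference, beside 50.3% of all genes tested. Of 35 tested mitochondrial ribosome and import genes, 26 did. In each of these lists 0 were called, beside 3.69% of all genes tested, and their median line differences were -0.26 and -0.19. The sign of each of these medians was the same after a second quantile normalization and after centring on array medians. Cdkn1a, the p53 target p21, was the 1 member of the list of p53 targets and cell cycle inhibitors with a called line difference (2.04 ± 0.36, adjusted p = 0.00996), with a rise of 1.44 in 3583T3 and a change of -0.59 in 3151T4; it was named after its values were seen.

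**Figure D5:**
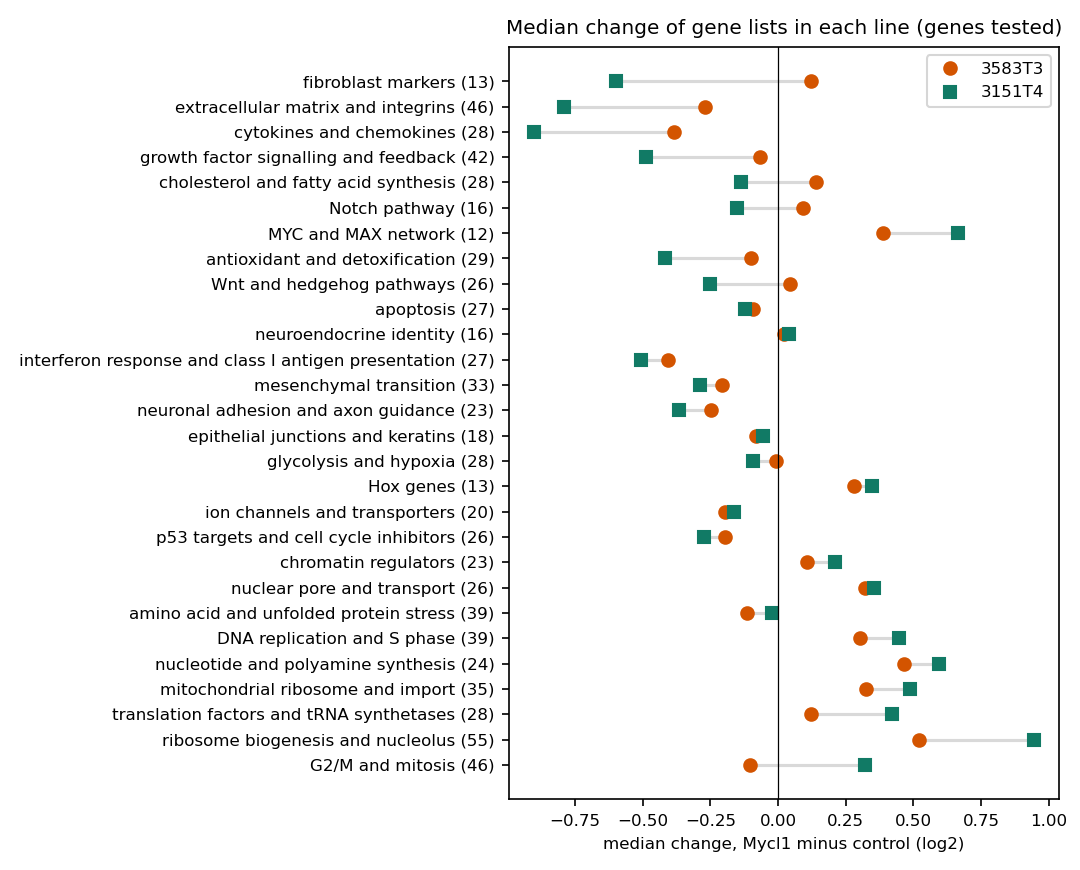
Median change with Mycl1 (log2) of the tested genes of each list in 3583T3 (orange circles) and 3151T4 (green squares), ordered by the median line difference of the list, with the number of genes tested in brackets; no errors are drawn because genes of a list are not replicates. Lists with under 10 genes tested and the leukocyte and macrophage list are not drawn. The fibroblast list at the top has medians of 0.12 in 3583T3 and -0.60 in 3151T4, and the G2/M list at the bottom -0.10 and 0.32.

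The lines differed before the vector: 80 of the 105 positive members (76.19%) were higher in 3151T4 than in 3583T3 controls, beside 49.25% of all measured genes, and 9 of the 32 negative members (28.12%) were. For 72 of the 105 (68.57%) and 20 of the 32 (62.5%), the gap between the lines was narrower with Mycl1 than without, beside 57.88% of all measured genes. The control and Mycl1 levels make up the line difference that chose the members, so these shares only describe them. The further probe sets of a gene were not used in the choice. For 28 of the 49 named genes the array carries further probe sets, 47 in all. The line difference had the same sign in 46 of them and was called in 31; they read the same RNA on the same arrays and are no replicates. The exception, a Lox probe set at 0.25 (adjusted p = 0.664), was under log2 4 throughout. Of the 23 further probe sets above the floor in all 4 groups, 23 had the same sign and 22 were called; the uncalled one was that of Lox described above.

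The arrays with the Nfib vector give levels of some of these genes in the same lines. Postn, at 5.14 and 4.84 on the 3583T3 control arrays, read 11.32 and 11.84 on the arrays labelled 3583T3 Nfib. Gas1 read 9.49 and 11.49 there and 12.46 and 12.57 in 3151T4 with Nfib. Col6a2, with no rise under Mycl1 in 3583T3, read 9.91 and 9.84 with Nfib in that line. On replicate 1 labelled 3583T3 Nfib, Col3a1 read 10.85, Cxcr4 4.90, Cd74 3.33 and Lyz1 3.78. These lay on the same side of the 3583T3 control arrays as with Mycl1. Lox (12.76) and Tbx15 (8.11) did not. Which of the changes with Mycl1 in 3583T3 are particular to that vector was not tested. Replicate 2 labelled 3583T3 Nfib carries Mycl transgene signal (10.22) against its label, so its values are given side by side and not compared.

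The E-box CACGTG was sought on both strands in the RefSeq promoters of GRCm38.p6, from 250 bases before to 50 after the start; it reads the same on both strands. It was found in 8.09% of the 27025 genes with a promoter in the table and in 12% of the 6973 tested genes with one. Of the positive members with a promoter, 8 of 76 (10.5%) held it, and of the negative ones 4 of 25 (16%). Among the named genes 3 of 33 did, Tfpi, Igf2bp3 and Igfbp2, and their motifs are shown in capitals within 30 bases, 5′ to 3′ on the strand of the gene, since this is the site of the factor expressed here. Tfpi lies at chr2:84476726-84476755 on the minus strand, with the motif beginning at base 17 of the transcript, Igf2bp3 at chr6:49214960-49214989 and chr6:49214932-49214961 on the minus strand, with motifs 23 bases before the start and at base 6, and Igfbp2 at chr1:72824326-72824355 on the plus strand, 142 bases before the start.
Tfpi: tggccatctgcaCACGTGagtgataaagtc
Igf2bp3 first site: gctgggattcctCACGTGagacgttgattt
Igf2bp3 second site: ttgtagtttgaaCACGTGgctcattcaaaa
Igfbp2: cgtgtgcacaagCACGTGccctcacgcaag
These 3 genes went different ways: Tfpi rose in 3583T3, Igfbp2 fell there, and Igf2bp3 fell there and rose in 3151T4. A match is a description of letters and not of binding.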

How the data were processed

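The authors deposited log2 signals of probe sets. The submitters' processing notes name GCRMA 2.20.0 and R 2.11.0; that tool corrects background by probe sequence, normalizes by quantiles and summarises probes. The log2 scale was taken from the range of the values. Per the labels' protocols, 100 ng of RNA was amplified for each array. Of 22690 probe sets, 64 are controls, 20380 have 1 gene symbol, 691 several and 1555 none. Genes were named from the single-symbol sets, with the probe set of highest mean among those above log2 4 on at least 2 of 8 arrays, which gave 8555 of 12393 genes. limma 3.58.1 in R 4.3.3 (lmFit, eBayes with trend) was fitted with 4 group means (4 residual degrees of freedom), and p-values were adjusted over all 8555 genes. The values of the Mycl, Mycn, Myc and Nfib probe sets, and of further probe sets of named genes, came from a separate fit. That fit covered all 20380 single-symbol probe sets without a filter, and its p-values were adjusted over these. Errors are SE and intervals are 95%. The number of arrays limits the precision. Members and the 32 gene lists were chosen with earlier results of these data known.

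The members are the called genes whose 4 group means are at least log2 4. A limit replaces a mean under log2 4 by 4. The rule for named genes took all Mycl, Mycn, Myc and Nfib probe sets, the 12 largest line differences of each sign, the 5 largest limits of each sign, up to 6 genes of each opposite pattern, and up to 4 members of each list with at least 2 measured members; predicted symbols were skipped. Promoter motifs were counted in RefSeq GRCm38.p6. The fit was tested on simulated data. Replicate numbers were not used as pairs in the main fit: deviations of same-numbered arrays correlated at -0.407 in 3583T3 and -0.11 in 3151T4. These values do not settle whether some arrays share a batch. Each of the 8 arrays correlated best with its own replicate (0.9865 to 0.9932). Alternatives were other filters, normalizations, spread models, arrays and floors, the replicate number as a block, and leaving out each array.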

Additional observations from a re-analysis of the deposited data

Results flagged for a closer look

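The change with Mycl1 differed between 3583T3 and 3151T4, by the limma test of the difference itself, for all of the 49 named genes, since a called difference is how they were chosen. Among the measured genes the log2 difference (change in 3583T3 minus change in 3151T4) was positive for Gas1 (4.08), Cdh11 (3.45), Col6a3 (3.34), Dkk2 (3.15), Serpinf1 (3.04), Postn (2.89), Thbs2 (2.85), Vegfd (2.85), Mmp3 (2.81), Col3a1 (2.81), Tfpi (2.76), Mmp23 (2.73), Bgn (2.48), Prrx1 (2.38), Col6a2 (2.25), Mgst1 (2.24), Dkk3 (2.23), Inhbb (2.06), Pdgfrb (1.85), Aldh1a1 (1.79), Aldh3a1 (1.76), Col1a2 (1.71), Lif (1.66), Cx3cl1 (1.46), Igfbp4 (1.37) and Gsta4 (1.07). It was negative for Cxcr4 (-2.68), Dpp4 (-2.45), Nrip3 (-2.37), Cadm1 (-2.37), Igf2bp3 (-2.10), Ptprd (-2.05), Rasl11b (-1.96), B3gnt5 (-1.92), Tbx15 (-1.73), Il18 (-1.66), Ccdc88c (-1.65), Igfbp2 (-1.64) and Lox (-1.39). Genes at the signal floor in a group had fitted differences of Ccn5 (5.20), Svep1 (3.09), Nid2 (2.99), Tmem45a (2.50), Hoxb5 (2.24), Sla (-2.39), Cd53 (-2.59), Lyz2 (-2.74), Lyz1 (-4.39) and Cd74 (-4.58). The leukocyte genes Cd74, Lyz1, Lyz2 and Cd53 in the last set fell in both lines.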

How the results depend on the processing

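The main counts were 316 genes with a line difference, 137 of them measured, 790 called in 3583T3 and 1711 in 3151T4. With all 16 arrays the counts were 193, 81, 281 and 1431, of which 65 of the 81 were among the 137; the Mycl signal of 2 of those arrays goes against their labels (present in 1, missing in 1), and without them (14 arrays) the counts were 368, 188, 1047 and 2054. The filter at log2 6 gave 175 line differences, since fewer genes were tested, and a floor of log2 3 gave 206 measured members. With the replicate number as a block the counts were 247, 92, 519 in 3583T3 and 1161 in 3151T4, and the calls of Lox, Igfbp2, Igfbp4, Gsta4, Cx3cl1, Lif and Col1a2 were lost; it ended no other call of a named gene. Since the correlations of same-numbered arrays were under 0, the numbers were also crossed, an alternative chosen after seeing the data, and the counts were then 560, 340, 1564 and 2828. Leaving out each array in turn gave 120 to 438 line differences, 48 to 241 measured members, 377 to 1155 called in 3583T3 and 654 to 2237 in 3151T4. Of the 49 named genes, 25 kept their call under every alternative that gave them a value (18 or 19 each), 24 lost it under at least 1, 6 of these only when an array was left out, and 0 changed sign. The cause of these moves was not tested. The smallest called difference of a measured gene was 1.01 on the log2 scale, and signals under log2 4 have no order.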
